A study of Homo sapiens with 6 samples.

Results

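The BCL2 family decides whether a stressed cell opens its mitochondria and dies, and 10 of its genes were followed here in U2OS cells after transfection of a miR-542-3p mimic. The genes were BAX, BAK1, BCL2, BCL2L1, MCL1, BBC3, PMAIP1, BID, BCL2L11 and BIK, out of 20046 genes that the annotation of the array pairs with at least 1 probe of their own. They were chosen by symbol, with earlier results of these data known, as were the gene lists set beside them. Shares of called probes are therefore not those of an unselected set. All 22 probes that the annotation gives to a single one of the 10 symbols were taken, each kept separate. U2OS is an established human osteosarcoma line. The control group (3 arrays) received a negative control mimic, labelled miR-negative, and the treated group (3 arrays) a mimic of miR-542-3p, a short double-stranded RNA made to stand in for that microRNA. RNA of both groups was taken 48 h after transfection and hybridised to Illumina bead arrays. No allele or other agent is named for either group, all arrays came from 1 cell line, and the labels do not say whether replicates were separate cultures, so the spread behind each p-value is that of these samples and may be only technical. The comparison asks which transcripts differ in level once miR-542-3p is supplied in excess.

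Proteins of the family carry short BCL2 homology (BH) regions and bind one another. BAX and BAK1 are the effectors, which assemble into pores in the outer mitochondrial membrane and let cytochrome c out. BCL2, BCL2L1 (BCL-XL) and MCL1 are the anti-apoptotic members, which hold the effectors and their activators in check. The BH3-only members, here BBC3 (PUMA), PMAIP1 (NOXA), BID, BCL2L11 (BIM) and BIK, sense damage and either neutralise the anti-apoptotic members or activate the effectors directly.

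The array medians ranged from 132.2 to 151.4 in raw intensity, and 17848 to 18652 of 47323 probes were detected per array, where detected means a detection p-value under 0.05. The lowest intensity counted as detected was between 144.3 and 165.7, depending on the array. Of 9 mesenchymal and bone marker genes with a probe, 7 were detected on all arrays, among them VIM, COL1A1 and RUNX2. Of 5 leukocyte markers only CD68, of 5 epithelial markers only EPCAM and of 5 endothelial markers none was detected on all arrays. Over tested probes the correlation was 0.982 to 0.990 within a group and 0.953 to 0.966 between groups. On the first principal component, which held 65.0% of the variance, mimic replicate 2 (score 27.0) lay nearer to the control arrays (-36.9 to -35.1) than mimic replicates 1 (37.2) and 3 (44.5) did. An array reads RNA of the whole culture, so a change in every cell and a change in the make-up of the culture cannot be told apart.

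Promoters are shown for BAX and BAK1, the effectors, which both rose, and for PMAIP1, whose brighter probe was called lower, so that genes with opposite changes can be read side by side. Each sequence is the 250 bases before the start of the gene, 5′ to 3′ on the gene's strand, from RefSeq (GRCh38.p14). Capitals mark GC boxes, spelled GGGCGG, along with TATA boxes, spelled TATAAA, along with CCAAT boxes, spelled as their name, all searched on both strands. The BAX stretch is chr19:48954625-48954874, plus strand. The BAK1 stretch is chr6:33580277-33580526, minus strand. The PMAIP1 stretch is chr18:59899746-59899995, plus strand.
BAX: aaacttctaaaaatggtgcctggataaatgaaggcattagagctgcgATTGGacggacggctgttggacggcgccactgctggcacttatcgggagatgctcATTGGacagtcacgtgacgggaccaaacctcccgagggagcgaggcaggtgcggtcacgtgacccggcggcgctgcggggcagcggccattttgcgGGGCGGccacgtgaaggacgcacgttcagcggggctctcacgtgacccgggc
BAK1: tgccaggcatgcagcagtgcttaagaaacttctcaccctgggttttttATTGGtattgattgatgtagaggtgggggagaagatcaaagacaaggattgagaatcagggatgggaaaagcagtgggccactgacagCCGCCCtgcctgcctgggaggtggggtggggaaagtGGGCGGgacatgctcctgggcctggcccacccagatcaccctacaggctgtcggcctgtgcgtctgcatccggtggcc
PMAIP1: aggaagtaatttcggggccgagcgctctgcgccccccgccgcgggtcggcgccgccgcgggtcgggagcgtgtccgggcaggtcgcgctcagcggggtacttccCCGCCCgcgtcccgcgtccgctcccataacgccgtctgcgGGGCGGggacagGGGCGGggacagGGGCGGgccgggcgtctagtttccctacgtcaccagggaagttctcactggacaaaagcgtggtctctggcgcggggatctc

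PMAIP1 had 4 GC boxes, BAK1 had 2 and BAX had 1, and 42.6% of all 35116 promoter windows of this length held at least 1. BAX had 2 CCAAT boxes and BAK1 had 1, against 32.0% of windows with at least 1, and none of the 3 stretches held a TATA box, found in 10.7% of windows. The RefSeq table matched 8 of the 10 genes with 13 windows. MCL1 and BIK were not matched. Among the other matched members, BID, not called, held 0 to 4 GC boxes in its 5 windows, and BCL2L11, not called, held 3. BCL2 and BBC3, not called, held 0, and BCL2L1, called higher, held 0 in both of its windows. Any relation of these counts to the changes was not tested. One BCL2L1 window held 2 TATA boxes. A match describes these letters only, and the files measure no binding.

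Both effector genes and BCL2L1 rose with the mimic, and PMAIP1 fell by 1 of its probes, a call that ended in 4 of 6 fits with 1 array left out. The brightest BAX probe was 2.20-fold and the only BAK1 probe 2.34-fold higher (1.43-fold as a ratio of mean raw intensities), both BCL2L1 probes were 1.66-fold and 1.89-fold higher, and the brighter PMAIP1 probe was 1.75-fold lower. The probes of BCL2, MCL1, BBC3, BID and BCL2L11 did not pass the test, and BIK was not detected on any array. Of the 22 probes, 17 were detected on at least 3 of 6 arrays and were tested, and these covered 9 of the 10 genes. Called means an adjusted p under 0.05 in limma's moderated test over all 18113 tested probes of the array. Of the 17, 4 were called higher, 1 was called lower and 12 were not called. Over all tested probes 11.3% were called higher, 12.3% were called lower and 23.6% were called in either direction. The 5 called member probes (29.4%), which belong to 4 genes, thus lie near the background share for calls in either direction. By direction, 23.5% were called higher, above the background share, and 5.88% lower, below it. These differences were not tested. The median change of the 17 was 0.24 on the log2 scale, against 0.02 over all tested probes.

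**Figure D1:**
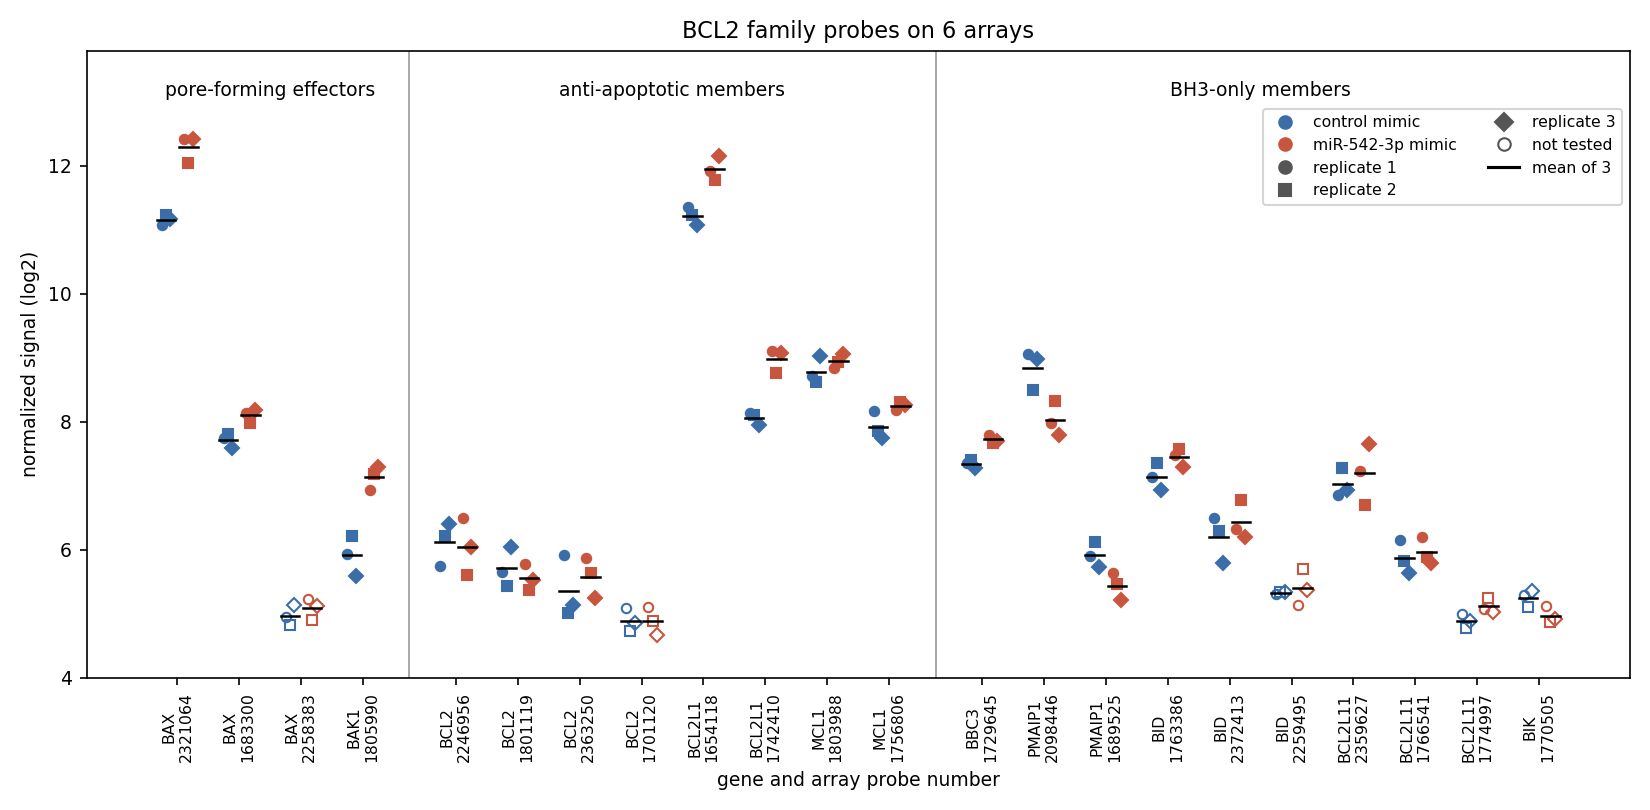
Normalized log2 signal (vertical axis) of the 22 BCL2 family probes (horizontal axis) on 3 control arrays and 3 mimic arrays, with the replicate number as the marker, the mean of 3 as a bar, and open markers for the 5 probes that were not tested. Among tested probes, the mimic arrays lie above the control arrays for both tested BAX probes, BAK1, both BCL2L1 probes, the dimmer MCL1 probe and BBC3. They lie below the control arrays for both PMAIP1 probes. Of these, the dimmer tested BAX probe, the MCL1 and BBC3 probes and the dimmer PMAIP1 probe were not called.

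BAX encodes a cytosolic effector that moves to mitochondria when activated (gene at chr19:48954875-48961798, GRCh38.p14). Its brightest probe, ILMN_2321064, read 11.08, 11.24 and 11.16 on control replicates 1, 2 and 3 and 12.42, 12.05 and 12.42 on mimic replicates 1, 2 and 3 (normalized log2 signal). All mimic arrays were above all control arrays, with mimic replicate 2 the lowest of them. The means were 11.16 ± 0.08 and 12.30 ± 0.21 (SD, n = 3 per group), a change of 1.14 ± 0.15 (SE; limma adjusted p = 0.0012) with a 95% interval of 0.81 to 1.47. In raw intensity this probe went from 2327.3, 2477.1 and 2532.8 in the controls to 5849, 4279 and 5310.1 with the mimic, a ratio of means of 2.10. The probe stayed called when any 1 array was left out, with changes of 1.07 to 1.27.

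A second BAX probe, ILMN_1683300, which the annotation lists against another transcript of the gene, read 7.75, 7.81 and 7.59 in the controls and 8.14, 7.98 and 8.18 with the mimic (log2). Its groups did not overlap, but the change of 0.39 ± 0.13 (SE) was not called (limma adjusted p = 0.0634). The interval was 0.09 to 0.68. Within each array the first probe gained on the second by 0.75 (log2; gap of 3.44 ± 0.12 in the controls and 4.20 ± 0.11 with the mimic, SD, n = 3; exact two-sided permutation p = 0.10, the smallest that 3 against 3 arrays allow, and 0.40 adjusted over 8 pairs). The third probe, ILMN_2258383, listed against the same transcript as the brightest one, was detected on no array and was not tested.

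BAK1 encodes the effector that sits in the outer mitochondrial membrane (chr6:33572552-33580276, GRCh38.p14). Its probe ILMN_1805990 was dim, with intensities of 176.8, 182.1 and 167.5 on the control arrays and 244, 244.3 and 264.7 on the mimic arrays. Every array detected it, and the lowest mimic value was above the highest control value. On the normalized log2 scale the controls read 5.93, 6.22 and 5.60 and the mimic arrays 6.93, 7.19 and 7.29, so that mimic replicate 1 was the lowest of its group. The mean rose from 5.91 ± 0.31 to 7.14 ± 0.19 (SD, n = 3), by 1.22 ± 0.18 (SE; limma adjusted p = 0.0025; 95% interval 0.80 to 1.65). The size depends on how background was treated: uncorrected intensities gave 0.55, normexp at an offset of 50 gave 0.71 and the deposited log2 values gave 0.55, all called.

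BCL2L1 encodes BCL-XL, which keeps BAX and BAK1 inactive, and by alternative splicing also a short pro-apoptotic form (chr20:31664452-31723963, GRCh38.p14). The annotation lists both of its probes against 1 transcript, so they do not separate the splice forms here. Probe ILMN_1654118 read 11.36, 11.23 and 11.08 in the controls and 11.93, 11.78 and 12.15 with the mimic (log2). No control array reached any mimic array, and mimic replicate 3 was the highest. The change was 0.73 ± 0.15 (SE; limma adjusted p = 0.0087; 95% interval 0.40 to 1.07).

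Probe ILMN_1742410 of BCL2L1 read 8.13, 8.11 and 7.94 in the controls and 9.11, 8.76 and 9.07 with the mimic (log2). Again the groups did not overlap, with mimic replicate 2 the lowest of its group. Its change was 0.92 ± 0.14 (SE; limma adjusted p = 0.0029; 95% interval 0.59 to 1.25). The changes of the BCL2L1 probes differed by -0.19, brighter minus dimmer (exact two-sided permutation p = 0.10, adjusted 0.40). That p is again the smallest that 3 against 3 arrays allow, so the test could not call a difference. The sign of the difference turned with no background correction (0.00501) and with the deposited log2 values (0.0251).

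The other anti-apoptotic genes did not pass the test. MCL1 encodes a short-lived protein that binds BAK1 and NOXA. Its brighter probe, ILMN_1803988, read 8.71, 8.62 and 9.03 in the controls and 8.85, 8.94 and 9.06 with the mimic (log2), a change of 0.16 (limma adjusted p = 0.473; 95% interval -0.18 to 0.50). Those groups overlapped. The dimmer probe, ILMN_1756806, read 8.17, 7.85 and 7.75 in the controls and 8.18, 8.32 and 8.26 with the mimic, a change of 0.33 (limma adjusted p = 0.144; 95% interval -0.01 to 0.66). Here the groups were separate, by a narrow gap between control replicate 1 and mimic replicate 1.

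BCL2, the founding member of the family, was close to background on these arrays. Of its 4 probes 3 were tested, and only ILMN_2246956 was detected on all 6 arrays. That probe read 5.74, 6.22 and 6.41 in the controls and 6.50, 5.60 and 6.05 with the mimic (log2), so the groups overlapped and the highest and lowest values were both mimic arrays. The change was -0.07 with a 95% interval of -0.65 to 0.51 (limma adjusted p = 0.866). Probes ILMN_1801119 and ILMN_2363250, detected on 4 and 3 arrays, changed by -0.15 (95% interval -0.58 to 0.28) and 0.22 (-0.37 to 0.82), neither called. The fourth, ILMN_1701120, was detected on no array. The upper end for ILMN_2363250, 0.82, lies above the 0.73 of the brighter BCL2L1 probe, so a rise of that size in BCL2 could have gone unseen by this probe.

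**Figure D2:**
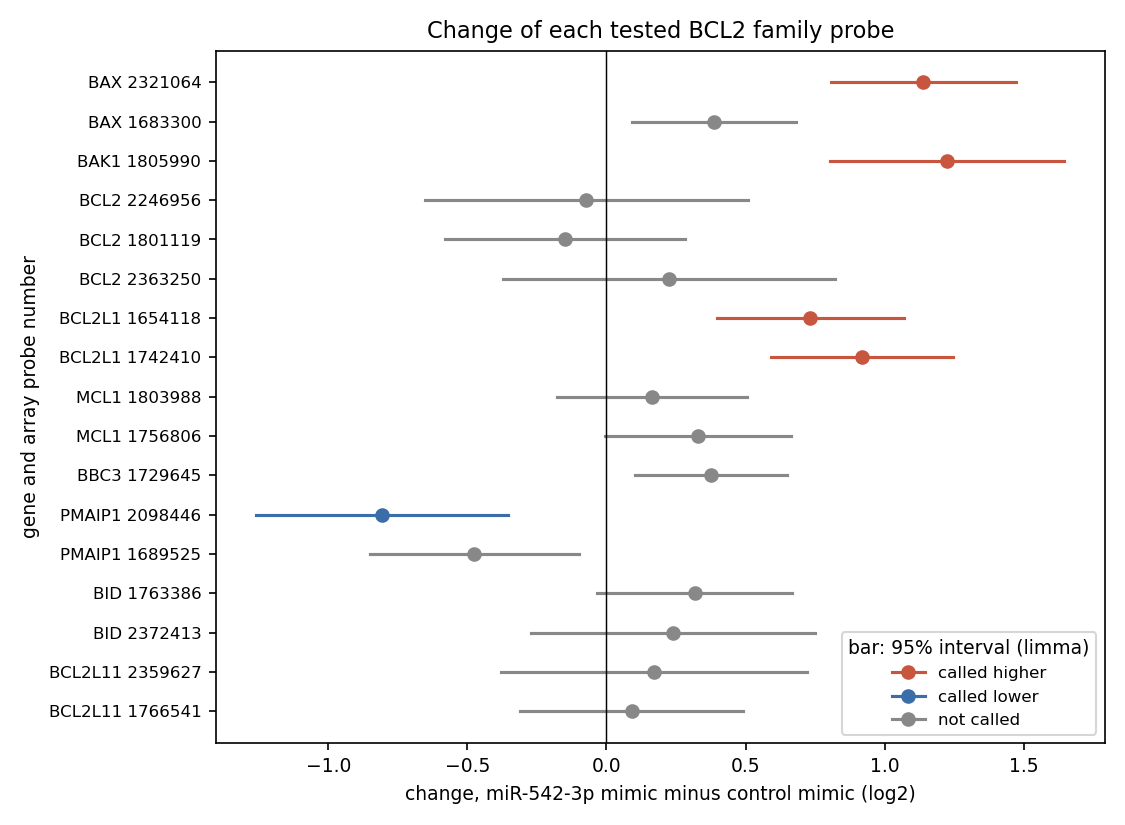
Change of each of the 17 tested BCL2 family probes (mimic minus control, log2, horizontal axis) with limma's 95% interval as a bar and the probes on the vertical axis. The 4 probes called higher belong to BAX, BAK1 and BCL2L1, the probe called lower belongs to PMAIP1, and the intervals of BCL2 are wide, with that of ILMN_2246956 running from -0.65 to 0.51.

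Among BH3-only genes, PMAIP1 was the one with a called probe. It encodes NOXA, which binds MCL1 and marks it for destruction (chr18:59899996-59904305, GRCh38.p14). The brighter probe, ILMN_2098446, read 9.06, 8.49 and 8.98 on control replicates 1, 2 and 3 and 7.99, 8.32 and 7.80 on mimic replicates 1, 2 and 3 (log2). All mimic arrays were below all control arrays, but the replicates numbered 2 of both groups lay closest together. The means were 8.84 ± 0.31 and 8.04 ± 0.26 (SD, n = 3), a change of -0.81 ± 0.20 (SE; limma adjusted p = 0.0202; 95% interval -1.26 to -0.35). In raw intensity the controls gave 659.2, 460.3 and 654.4 and the mimic arrays 379.3, 414.2 and 328.9.

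The call of ILMN_2098446 (PMAIP1) ended without control replicate 1 (-0.70, limma adjusted p = 0.0709), control replicate 3 (-0.74, 0.0669), mimic replicate 1 (-0.78, 0.0589) or mimic replicate 3 (-0.69, 0.0640), and with no filter on dim probes (adjusted p = 0.0516). The dimmer PMAIP1 probe, ILMN_1689525, was detected on all control arrays and on 1 mimic array. It read 5.90, 6.12 and 5.73 in the controls and 5.64, 5.47 and 5.21 with the mimic (log2), without overlap. It met the detection filter through the control group, where it was higher, so it is no separate support for the fall. Its change of -0.48 ± 0.16 (SE) was not called (limma adjusted p = 0.0701; 95% interval -0.85 to -0.10), and was -0.17 with no background correction. The changes of the PMAIP1 probes differed by -0.33, brighter minus dimmer (exact two-sided permutation p = 0.30, adjusted 0.80).

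BBC3 encodes PUMA, which binds all of the anti-apoptotic members considered here. Its single probe, ILMN_1729645, read 7.36, 7.41 and 7.28 in the controls and 7.80, 7.67 and 7.70 with the mimic (log2). The arrays of each group lay close together and the groups did not overlap. The change was 0.38 ± 0.12 (SE; 95% interval 0.10 to 0.65), and its limma adjusted p of 0.0533 missed the threshold. It was called when only probes detected on all 6 arrays were fitted (adjusted p = 0.0328), with 1 probe per gene (0.0495) and with array weights (0.0197), and not in any of the 6 fits that left out 1 array (0.0646 to 0.161).

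BID links death receptors to mitochondria once caspase-8 has cut it. Probe ILMN_1763386 read 7.13, 7.35 and 6.93 in the controls and 7.48, 7.58 and 7.30 with the mimic (log2), with an overlap between control replicate 2 and mimic replicate 3. Its change of 0.32 was not called (limma adjusted p = 0.175; 95% interval -0.03 to 0.67). The dimmer ILMN_2372413 changed by 0.24 (95% interval -0.27 to 0.75), not called, with overlapping groups. The third BID probe, ILMN_2259495, was detected on 1 mimic array only and was not tested.

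BCL2L11 encodes BIM, an activator of both effectors that is made in several splice forms. Probe ILMN_2359627 read 6.86, 7.28 and 6.93 in the controls and 7.23, 6.70 and 7.65 with the mimic (log2). The mimic arrays held both the highest and the lowest value, and the change of 0.17 was not called (limma adjusted p = 0.651; 95% interval -0.38 to 0.72). Probe ILMN_1766541 changed by 0.09 (95% interval -0.31 to 0.49), also not called, and ILMN_1774997 was detected on no array. BIK, a BH3-only protein of the endoplasmic reticulum, had 1 probe, ILMN_1770505, which was detected on no array of either group and has no measured change.

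Across the family, 13 tested probes had a positive and 4 a negative change. The mimic arrays lay wholly above the control arrays for 7 tested probes and wholly below for 2, so that 9 of 17 did not overlap. Those below were the PMAIP1 probes, the dimmer of them detected on 1 mimic array. Over all tested probes the shares without overlap were 20.9% above, 19.9% below and 40.8% in either direction. In 7 of 8 comparisons between probes of 1 gene, both probes had a change of the same sign, the exception being a pair of BCL2 probes. By role, 2 of 3 effector probes were called higher, 2 of 7 anti-apoptotic probes were called higher, and 1 of 7 BH3-only probes was called lower. Each role holds few probes, and over all tested probes 11.3% were called higher and 12.3% lower, so the BH3-only share of 14.3% is near the background.

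**Figure D3:**
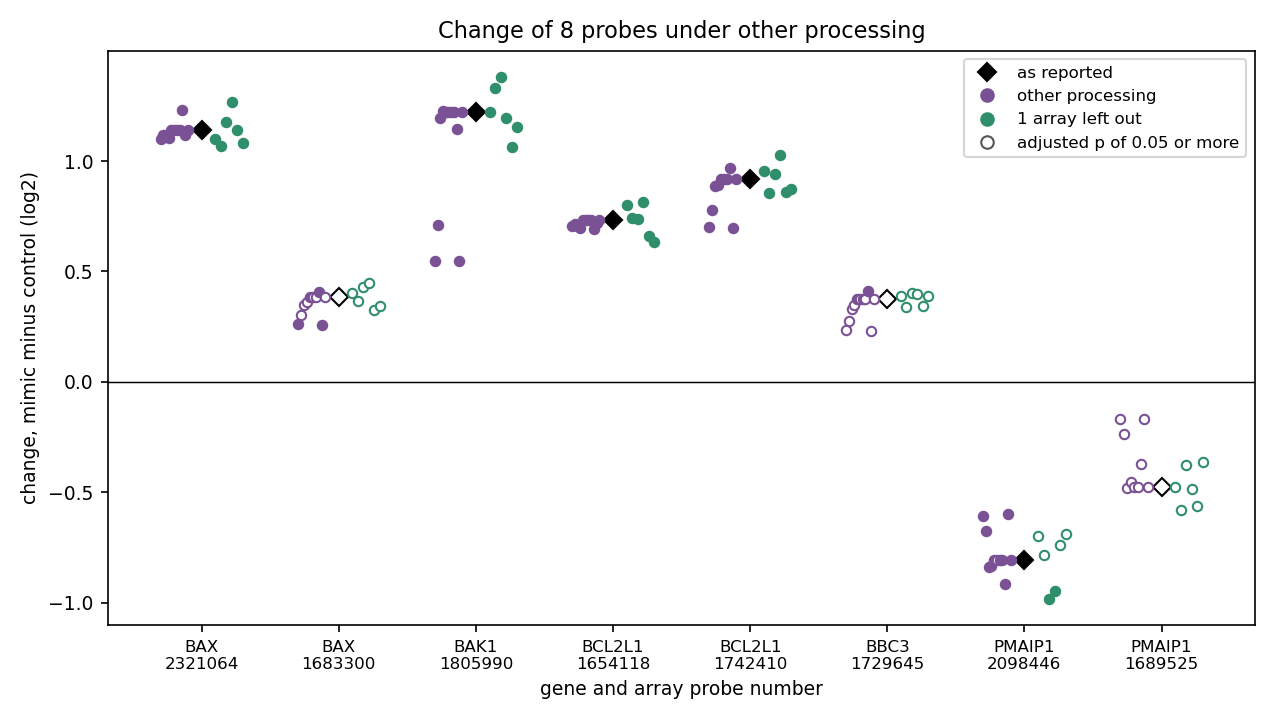
Change (mimic minus control, log2, vertical axis) of the 8 probes (horizontal axis) of BAX, BAK1, BCL2L1, BBC3 and PMAIP1 that were called or lay near the threshold, as reported (diamonds), under other processing (purple) and with 1 array left out (green), with open markers where the adjusted p was 0.05 or more. BAK1 drops to 0.55 with no background correction but keeps filled markers throughout, whereas the brighter PMAIP1 probe has open markers in 4 of 6 fits that left out an array.

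The differences were also read by replicate number. For the brightest BAX probe, ILMN_2321064, the mimic array exceeded the control array of the same number by 1.35, 0.81 and 1.26 on the log2 scale for numbers 1, 2 and 3. For PMAIP1 probe ILMN_2098446 these values were -1.07, -0.17 and -1.18, so the replicates numbered 2 differed least in both genes. For BAK1 they ran from 0.97 to 1.69, the highest for number 3, and for BCL2L1 probe ILMN_1654118 they were 0.57, 0.55 and 1.07. The part that mimic replicate 2, the mimic array nearest to the controls over all tested probes, plays in these sizes was not tested beyond leaving it out, which gave 1.27 for BAX and -0.95 for PMAIP1. Control replicate 2 was also the lowest control array for that PMAIP1 probe (8.49, against 9.06 and 8.98). Leaving out control replicate 2 gave 1.18 for BAX and -0.98 for PMAIP1. Which array accounts for the small difference at number 2 was not tested.

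Of 17 further genes, family members or partners of them, all had a probe and 11 were tested, through 16 probes. Of these probes 12.5% were called lower, near the 12.3% of all tested probes, and none higher, against 11.3%. In either direction 12.5% were called, against 23.6% of all tested probes. The count of called probes was 2, all lower, and 14 were not called, with a median change of -0.13. The count was 4 with no background correction, with the trend and robust variance model, with array weights and with the deposited log2 values, and 1 without control replicate 1, control replicate 3 or mimic replicate 1. The difference of these shares from those of all tested probes was not tested. BNIP2, a partner of BCL2 first found through viral proteins, fell by 0.88 ± 0.14 (SE; limma adjusted p = 0.0031). BCL2L13, a mitochondrial family member, fell by 0.49 ± 0.13 (limma adjusted p = 0.0240), and was not called in 4 of 6 fits that left out 1 array, those without a replicate numbered 1 or 3 (adjusted p up to 0.0911). BAD, a BH3-only protein controlled by phosphorylation, had changes of 0.45 and 0.18, and HRK, another BH3-only gene, of -0.04, none called.

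Among genes that act with or after the pore, more probes were called lower than higher. Of 17 listed genes 15 had a probe and 13 were tested, through 19 probes, of which 5 were called lower, 1 higher and 13 not called (26.3% lower and 5.26% higher, against 12.3% and 11.3% of all tested probes, with a median change of 0.00). This list too was chosen with earlier results of these data known, so these shares are a description only. VDAC3, a channel of the outer mitochondrial membrane, fell by 0.96 ± 0.12 (SE; limma adjusted p = 0.0011). The related VDAC1 changed the other way, by 0.37 without overlap of the groups, and was not called (limma adjusted p = 0.0566). The VDAC2 probe was detected on no array. DIABLO, the released protein that blocks inhibitors of caspases, rose by 0.76 ± 0.13 by 1 probe, its dimmest (limma adjusted p = 0.0045), or by 0.51 with no background correction. Its brightest probe, at 0.22, and its other probe, at 0.18, were not called. OPA1, which shapes the inner membrane, fell by 0.49, MOAP1, a BAX-binding protein, fell by 0.54, and DNM1L, which divides mitochondria, fell by 0.46 and 0.41 with another probe at 0.09, not called. Calls of OPA1, MOAP1 and DNM1L ended in most fits with 1 array fewer: only the VDAC3 and DIABLO probes were called without control 1, control 3 or mimic 1, and 3 probes of the list were called without control 2 or mimic 3. APAF1 (0.41) and CASP9 (0.20 and -0.07), which form the apoptosome with cytochrome c, were not called.

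Regulators of the family's transcription and protein turnover had 6 of 23 tested probes called, all higher (26.1%, against 11.3% of all tested probes called higher), with a median change of 0.16. The 6 probes belong to 4 genes, and 3 of them to STAT3 alone. As the list was chosen with earlier results of these data known, its share above the background is a description only. Of the 17 genes listed 16 had a probe and 14 were tested. DDIT3 (CHOP), a stress-induced transcription factor, rose by 1.91 ± 0.19 (SE; limma adjusted p = 4.0e-04). All 3 probes of STAT3, a transcription factor known to raise BCL2L1 and MCL1, rose, by 1.25, 1.40 and 1.08. FBXW7, a subunit of a ubiquitin ligase that can act on MCL1, rose by 1.13 by 1 probe, with other probes at 0.48 and -0.44, not called. MDM2, a RING-type ubiquitin ligase, rose by 1.44 ± 0.22 (limma adjusted p = 0.0025), or by 0.63 with no background correction. That MDM2 probe was dim, detected on 2 control arrays and 3 mimic arrays, and its other probe was detected on no array. E2F1 (0.05) and FOXO3 (-0.11 and -0.03) were not called.

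**Figure D4:**
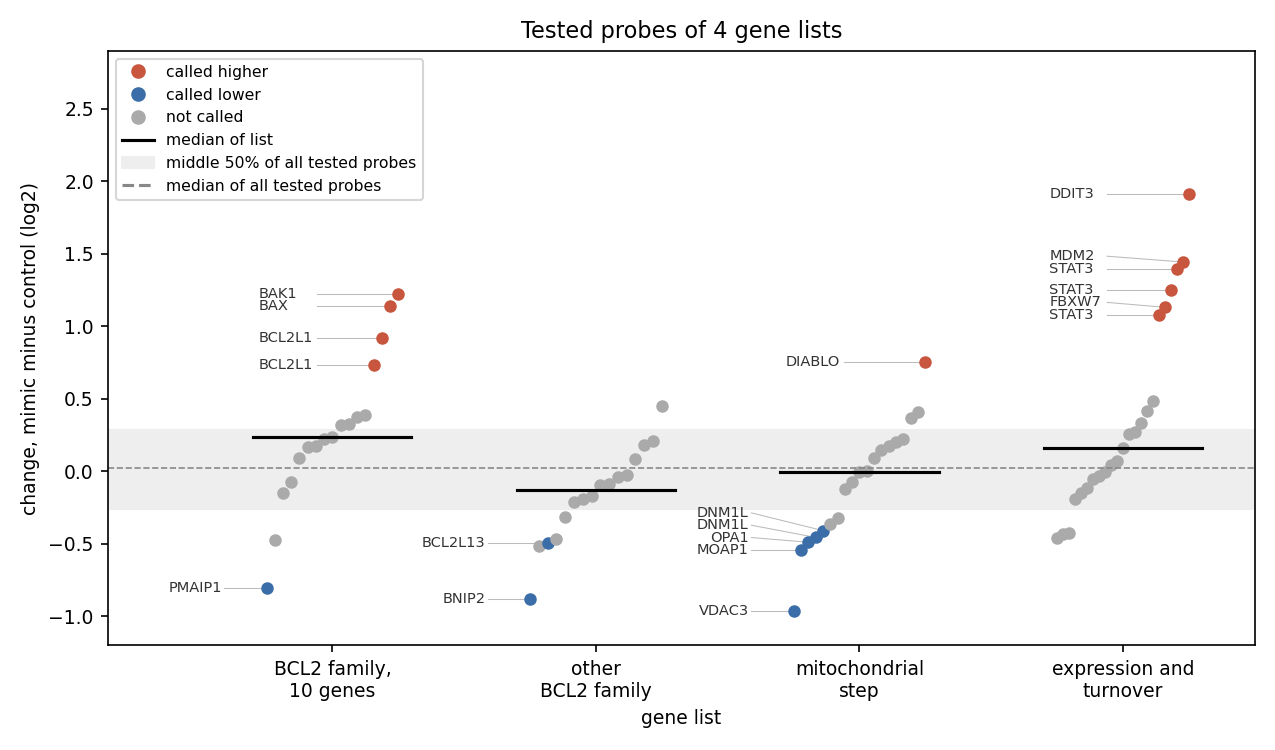
Change (mimic minus control, log2, vertical axis) of the tested probes of the 10 BCL2 family genes and of 3 related gene lists (horizontal axis), with called genes named, list medians as bars, and the median and middle 50% of all tested probes as a dashed line and a grey band. The called probes of the list of other family and partner genes (labelled other BCL2 family) are all lower, at 12.5% of its tested probes. That is near the 12.3% of all tested probes called lower. The called probes of the expression and turnover list are all higher, and DDIT3 has the highest value at 1.91.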

How the data were processed

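RNA of 6 U2OS samples (3 per group) was measured on Illumina bead arrays. The authors deposited non-normalized intensity values for 47323 probes and, per the file headers, their detection p-values. Their other deposited table holds log2 values. The sources used here do not name the software behind either. Background was corrected with limma's nec (limma 3.58.1, R 4.3.3; offset 16, controls inferred from the detection p-values), followed by quantile normalization and log2. Probes detected (p under 0.05) on at least 3 of 6 arrays were kept, 18113 in all, each as its own row. Groups were compared with lmFit and eBayes without covariate, with Benjamini-Hochberg adjustment over all rows, and intervals are limma's 95% intervals. Genes were assigned to probes from GEO's array annotation (30113 with 1 gene, 8 with several, 17202 not listed); no symbol needed an update against RefSeq (GRCh38.p14). Of the genes compared beside the members, up to 6 per list were named by smallest adjusted p among called probes, MDM2 in any case; others were named after their values were seen, and a further gene of the rule is not reported here. Members and lists were chosen with earlier results of these data known. The fit was also run on simulated data with few changed probes and with changes larger than those of most member probes. That run therefore says little about the calls reported here. Levels are not compared between probes, and the number of arrays limits the precision.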

Additional observations from a re-analysis of the deposited data

How the results depend on the processing

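The 4 member probes called higher (BAX, BAK1 and 2 of BCL2L1) were called under every alternative in which they were fitted: other background steps, normalizations, dim-probe filters, variance models, array weights, the deposited log2 values, the replicate block, an adjusted p under 0.01 and leaving out each array. The count of member probes called higher ran from 4 to 6. The 1 member probe called lower became 0 with no filter on dim probes and 0 at an adjusted p under 0.01, and 0 to 1 when an array was left out. The second BAX probe was called with no background correction (0.26), the deposited log2 values (0.26), array weights (0.41) and a filter on detection everywhere (0.39). The list of other family and partner genes had 4 calls with no background correction, with eBayes with trend and robust, with array weights and with the deposited log2 values. It had 1 at an adjusted p under 0.01, and 1 to 3 when an array was left out. The mitochondrial list, with 6 calls, had 2 with no filter, 2 at an adjusted p under 0.01, and 2 to 5 when an array was left out.

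The replicate numbers are not said to mark a shared batch, and same-numbered arrays deviated together only weakly (correlations of 0.020, 0.074 and 0.099), so they were not treated as pairs. With the replicate block the member calls were 4 higher and 1 lower, the mitochondrial list had 3 calls and all tested probes 4089 against 4278.

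Signs turned only for values that were not called. ILMN_2246956 (BCL2) was 0.25 with array weights and -0.30 to 0.15 when an array was left out. On leaving out an array, ILMN_1801119 (BCL2) ran from -0.293 to 0.0208, ILMN_1766541 (BCL2L11) from -0.0294 to 0.224 and ILMN_2359627 (BCL2L11) from -0.0566 to 0.417. Differences between probes of 1 gene turned sign for BCL2L1 (0.00501 with no background correction, 0.0251 with the deposited values) and, on leaving out an array, for BCL2 (-0.0843 to 0.269), MCL1 (-0.321 to 0.0443), BID (-0.0751 to 0.188) and BCL2L11 (-0.229 to 0.290). Over all tested probes the count was 3271 with no filter and 5700 with array weights, and 2803 to 4294 when an array was left out. The cause of these shifts was not tested. Signals near background limit the dim probes, among them those of BAK1, BCL2 and MDM2 and the dimmer ones of PMAIP1, BID and BCL2L11.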
